A study of Mus musculus with 9 samples.

Results

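The genes described here are 33 genes of lipid metabolism in the mouse retina, chosen by gene symbol from a list of sterol synthesis (22 genes), fatty acid synthesis (6), lipid uptake (2) and efflux (3). All 33 were measured, among 14194 genes in all, and all 33 passed the submitters' filter on low values in both conditions. The libraries hold ribosome-bound RNA pulled down with an antibody against GFP, called the positive fraction, from retinae of mice with the genotype Aldhl1l-Cre/Ert2+; NuTRAP+ (the protocol spells the driver Aldh1l1). In these mice tamoxifen turns on a Cre recombinase driven by an astroglial gene, and the recombined cells carry GFP-tagged ribosomes and labelled nuclei. The series text names Müller glia, the radial glia of the retina, as the source of the RNA. One group had crush of the optic nerve (ONC), a clamp on the nerve held for 3 s roughly 1 mm from the back of the eye, and the other group was the fellow eyes of the same animals (Control). Some fellow eyes may have had a sham procedure and others no surgery, which the labels do not tell apart. All eyes, in both groups, came from tamoxifen-induced animals and were collected 72 h after the procedure. Age and sex are not given in the labels used here. Each library pooled 2 retinae, and libraries are named by the pair of animals in the pool. There were 5 ONC libraries (pools 913/986, 914/92, 938/88, 976/978 and 981/982) and 4 Control libraries (914/92, 938/88, 976/978 and 981/982), and a control of pool 913/986 was not analysed here.

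The deposited values are on the log2 scale and are centred gene by gene, so that a value of 0 is the control baseline of that gene, a value of 1 is a doubling, and levels cannot be compared between genes. The values carry no read totals, and sequencing depth is unknown. All 12 Müller glia markers were measured (Rlbp1, Glul, Slc1a3, Kcnj10, Aqp4, Vim, Sox9, Crym, Dkk3, Car14, Abca8a and Aldh1l1), and none of them passed the test between the groups in limma. At an unadjusted p under 0.05, 3 were higher in ONC (Vim, Crym and Aldh1l1), against 8.62% of all genes. Aldh1l1, the gene of the driver, had a mean difference of 0.68, with the ONC eye higher in all 4 pools. Its adjusted p was 0.165 in limma and 0.053 with the animal pool as a block. With the animal pool as a block Vim (adjusted p = 0.0373) and Crym (adjusted p = 0.0428) passed. The median difference of all 12 Müller glia markers was 0.05. The values show whether markers of other cell types differed between libraries and not how much of those cells the fraction held. Of 13 microglia and macrophage markers, all 13 had a mean above Control, with a median difference of 1.59, and 1 (Cd68) passed the test (adjusted p = 0.0104, and 0.053 with the animal pool as a block). Cd68, Aif1 and Tmem119 passed the filter on low values in 1 condition only, and a gene that enters through 1 group is no independent evidence of a difference. Of 7 ganglion cell markers, 3 (Pou4f1, Sncg and Nefl) fell, of which Pou4f1 and Nefl did not pass with that block (adjusted p = 0.0546 and 0.0564), and the list's median difference was -0.70. Of 8 rod and cone markers 0 passed, all 8 had a mean below Control, and the median difference was -0.32. In pulled-down tissue RNA such as this, fewer cells of a type and less RNA per cell cannot be told apart.

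Cholesterol is built from acetyl-CoA through mevalonate, isoprenoid diphosphates, squalene and lanosterol, and fatty acids are built from the same acetyl-CoA through malonyl-CoA. The genes of both routes are switched on together by the sterol regulatory element-binding proteins (SREBPs), membrane-bound transcription factors that Scap escorts out of the endoplasmic reticulum when sterols are low and that the Insig proteins hold back when sterols are high. Cells take in lipoprotein lipid through receptors and lipases, and they export cholesterol through ABC transporters to apolipoproteins such as ApoE, which glia of the retina and brain secrete. Oxysterols switch the export genes on through the nuclear receptors LXR.

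The promoters were searched for the letters that SREBP-driven genes and LXR-driven genes are known for. RefSeq promoters (GRCm38.p6, 250 bases before to 50 bases after the start, 300 bases) were found for 25 of the 33 genes. A gene was counted if any of its start sites matched, while the share of all promoters counts each promoter by itself. Only the share of measured genes has the same base as the counts. The core of the sterol regulatory element, searched as TCACNCCAC on both strands, was found in 1 of the 25, Hmgcs1. It was in 1.24% of 32851 mouse promoters and 1.35% of 11178 measured genes. The box of the SREBP partner NF-Y, CCAAT on both strands, was in 16 of 18 sterol synthesis genes and 3 of 4 fatty acid synthesis genes. The shares were 37.4% of all promoters and 43% of the measured genes. The Sp1 box GGGCGG was in 17 of the 18 sterol synthesis genes, against 35.7% of all promoters and 67.8% of measured genes. The E-box CACGTG was in 5 of the 18, against 7.15% and 11.3%. The LXR element with its repeat AGGTCA spaced by 4 bases was in none of the 25 and in 0.0152% of all promoters. A match to these letters is a description of the sequence and not a measured site. The 150 bases before the start of 4 genes are shown 5′ to 3′ in the gene's own direction. Hmgcs1 is shown because it alone held the sterol element, Idi1 because it stands for the sterol genes with a mean difference near 0, and Lss and Fasn because their ONC means were among the lowest of the 33. Capitals mark the sterol element and the NF-Y box on either strand. In Hmgcs1 (chr13:119690201-119690350, plus strand) the sterol element starts 137 bases before the start, in Fasn (chr11:120824548-120824697, minus strand) 2 NF-Y boxes on opposite strands overlap, and Idi1 (chr13:8885456-8885605, plus strand) and Lss (chr10:76531455-76531604, plus strand) hold NF-Y boxes and no match to the sterol element.
Hmgcs1: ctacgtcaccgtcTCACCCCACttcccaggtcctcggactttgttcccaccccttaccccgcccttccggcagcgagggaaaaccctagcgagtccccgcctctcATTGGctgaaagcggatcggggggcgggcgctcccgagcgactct
Idi1: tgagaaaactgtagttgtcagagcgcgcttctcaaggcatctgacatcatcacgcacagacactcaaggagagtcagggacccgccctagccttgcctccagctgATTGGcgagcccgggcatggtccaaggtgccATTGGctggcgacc
Lss: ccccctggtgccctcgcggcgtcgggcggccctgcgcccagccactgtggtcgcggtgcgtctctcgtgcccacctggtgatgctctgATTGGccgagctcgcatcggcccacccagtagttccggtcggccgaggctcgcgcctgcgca
Fasn: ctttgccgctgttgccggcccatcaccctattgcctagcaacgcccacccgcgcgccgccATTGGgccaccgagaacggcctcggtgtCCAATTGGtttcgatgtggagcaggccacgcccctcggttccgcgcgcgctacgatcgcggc

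The mean differences of the 33 lipid genes 72 h after the crush lay between -0.55 and 0.30, with a median of -0.08. Of the 4 roles fatty acid synthesis had the lowest median difference (-0.37). None of the 33 genes passed the test in limma (adjusted p under 0.05 over 14194 genes), where 1.16% of all genes did, and none passed in any of 17 alternative analyses. At an unadjusted p under 0.05, 6 of the 33 had an ONC mean below Control (Lss, Stard4, Acaca, Fasn, Scd1 and Lrp1), against 10.9% of all genes, and 0 had one above, against 8.62%. The mean difference was below 0 for 25 of the 33, against 50.1% of all genes. All 5 ONC libraries lay below all 4 Control libraries for 4 of the 33 (Lss, Stard4, Acaca and Lrp1), against 4.44% of all genes, and above them for 0, against 3.39%. The ONC eye was lower than its fellow eye in all 4 pools for 8 of the 33, against 19% of all genes, and higher in all 4 pools for 4, against 17.9%. These genes share regulators and pathway steps, so their counts are not counts of independent genes. The 95% interval of the difference lay within -1 and 1 for all 33 genes, against 77.8% of all genes, and each such interval covers 1 gene alone and holds no change as large as 2-fold. Within a group the genes scattered with a median SD of 0.204, against 0.24 over all genes.

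**Figure D1:**
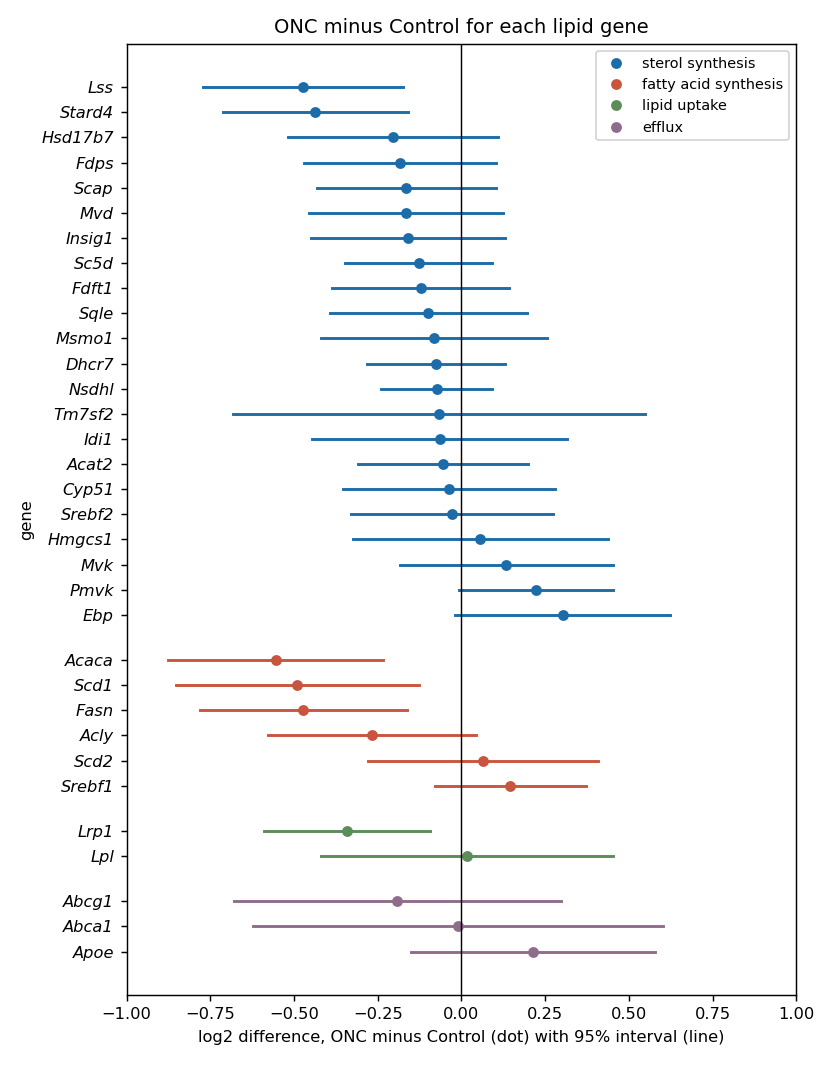
Mean log2 difference between ONC and Control for each of the 33 genes (dot) with its 95% interval (line), ordered within the 4 roles, with positive values higher in ONC. The intervals of 6 genes lie wholly below 0 (Lss, Stard4, Acaca, Scd1, Fasn and Lrp1), and none lies wholly above 0.

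Among the 6 genes of fatty acid synthesis the median difference was -0.37, against 0.00 over all genes, and the lowest were the genes of enzymes that make and desaturate palmitate (Acaca, Scd1 and Fasn). Acaca (gene 107476, mm10 chr11:84195438-84401651, plus strand) encodes acetyl-CoA carboxylase, which makes malonyl-CoA and is the committed step. Its log2 values were -0.05, 0.15, 0.44 and 0.00 in the Control libraries of pools 914/92, 938/88, 976/978 and 981/982, and -0.56, -0.66, -0.20, -0.47 and -0.21 in the ONC libraries of pools 913/986, 914/92, 938/88, 976/978 and 981/982. The groups did not overlap, and the ONC libraries of pools 938/88 and 981/982 lay nearest to Control. The mean difference was -0.55 (SE 0.142, 95% interval -0.88 to -0.23, 0.681 of Control), with a raw p of 0.00351 and an adjusted p of 0.10 in limma, so it did not pass the test. Fasn (gene 14104, chr11:120805958-120824547, minus strand), the synthase that builds palmitate, had values of 0.00, 0.01, 0.36 and -0.27 in Control and -0.49, -0.66, -0.24, -0.47 and -0.37 in ONC, in the same order of pools. The Control library of pool 981/982 lay among the ONC libraries, and in each of the 4 pools the ONC eye was the lower. The mean difference of Fasn was -0.47 (SE 0.137, adjusted p = 0.13 in limma).

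The desaturases gave unlike values. Scd1 (gene 20249, chr19:44394450-44407709, minus strand), which puts the double bond into palmitate and stearate, is given by library although the naming rule did not ask for it. Its values were 0.48, 0.46, -0.01 and 0.00 in Control and -0.17, 0.00, -0.53, -0.12 and -0.46 in ONC. The Control libraries of pools 914/92 and 938/88 were high, the other 2 lay beside the highest ONC library, and all 4 pools had the lower value in the ONC eye. The mean difference was -0.49 (SE 0.161, adjusted p = 0.16 in limma). Its paralog Scd2, the main form of the brain, had a mean difference of 0.07 (adjusted p = 0.82), with the ONC eye lower in 2 pools and higher in 2. The difference between the 2 paralogs was not tested, and reads shared by their similar sequences could be counted to either gene. Acly, which supplies cytosolic acetyl-CoA from citrate, had a mean difference of -0.27 (adjusted p = 0.31), with 3 of 4 pools lower. Srebf1, the SREBP gene tied to fatty acid synthesis, went the other way in its mean, with 0.15 (adjusted p = 0.43), and its 5 ONC values lay between 0.13 and 0.31 against -0.15 to 0.27 in Control.

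**Figure D2:**
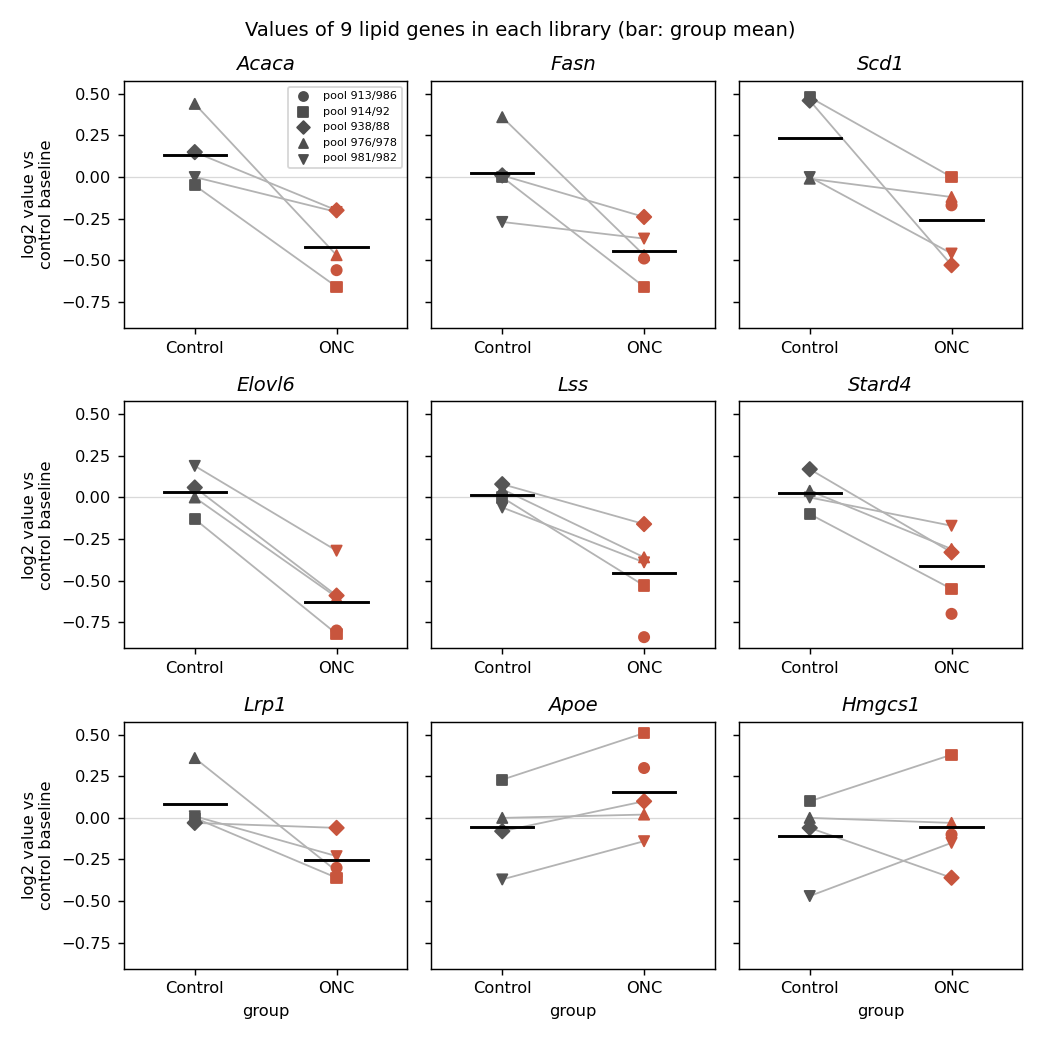
Log2 values relative to the control baseline of 9 genes in the 4 Control and 5 ONC libraries, with symbols for the pools, grey lines joining fellow eyes and bars at the group means. Acaca, Elovl6, Lss, Stard4 and Lrp1 have every ONC library below every Control library, Fasn and Scd1 are lower in the ONC eye of all 4 pools, and Apoe and Hmgcs1 overlap.

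Of the other genes of the pathway, Elovl6 was the only one of 60 measured to pass the test, where 1.16% of all genes did. It belongs to the same route. Elovl6 (gene 170439, chr3:129532386-129638493, plus strand) lengthens palmitate to stearate. Its values were -0.13, 0.06, 0.00 and 0.19 in Control and -0.80, -0.82, -0.59, -0.60 and -0.32 in ONC. The ONC libraries lay wholly below Control, and the ONC eye was the lower in all 4 pools. Elovl6 fell by 0.65 on the log2 scale (SE 0.122, 0.635 of Control, adjusted p = 0.0455 in limma). The call sits at the threshold: the adjusted p was 0.0502 when animal pool was a block and 0.0731 with a variance trend. It ranged from 0.0231 to 0.141 over the alternatives, and the call was lost under 14 of the 17. Of the 15 further genes of fatty acid synthesis and elongation, Elovl6 included, 9 had a mean below 0 and the median difference was -0.11. Elovl1, which lengthens very long chains, had values of 0.00, -0.04, -0.07 and 0.11 in Control and 0.63, 0.65, 0.33, 1.38 and 0.33 in ONC. All of its ONC libraries lay above Control, with a mean difference of 0.67 (adjusted p = 0.14, not past the test). Acacb and Me1, an acetyl-CoA carboxylase of mitochondria and the malic enzyme that supplies NADPH, had mean differences of -0.23 and -0.18 (adjusted p = 0.36 and 0.46).

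The sterol synthesis genes had a median difference of -0.08, which was -0.15 without Control 981/982 and -0.15 without ONC 914/92. ONC libraries lay wholly below Control for 2 of the 22, against 4.44% of all genes. Lss (gene 16987, chr10:76531627-76553934, plus strand) encodes lanosterol synthase, which closes the sterol rings. Its values were 0.00, 0.08, 0.05 and -0.06 in Control and -0.84, -0.53, -0.16, -0.36 and -0.39 in ONC. The 4 Control libraries lay close together, while the ONC libraries spread from -0.16 in pool 938/88 to -0.84 in pool 913/986. The mean difference was -0.47 (SE 0.133, 95% interval -0.77 to -0.17, 0.72 of Control, adjusted p = 0.12 in limma). Stard4, a cytosolic carrier that moves cholesterol between membranes, had values of -0.10, 0.17, 0.04 and 0.00 in Control and -0.70, -0.55, -0.33, -0.31 and -0.17 in ONC. As with Lss the ONC library of pool 913/986 was the lowest, and all 4 pools had the lower value in the ONC eye. The mean difference of Stard4 was -0.44 (SE 0.122, adjusted p = 0.12 in limma).

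The other enzymes of the route had smaller mean differences. Of the mevalonate steps, Acat2 (acetoacetyl-CoA thiolase) had -0.05 and Hmgcs1 (HMG-CoA synthase) 0.06. The kinases Mvk and Pmvk had 0.13 and 0.22 with the ONC eye higher in all 4 pools, and Mvd, the decarboxylase, had -0.16. Of the isoprenoid and squalene steps, Idi1 (isopentenyl diphosphate isomerase) had -0.07, Fdps (farnesyl diphosphate synthase) -0.18, Fdft1 (squalene synthase) -0.12 and Sqle (squalene epoxidase) -0.10. Past lanosterol, Cyp51, Tm7sf2, Msmo1, Nsdhl, Hsd17b7, Sc5d and Dhcr7, which demethylate, reduce and desaturate the rings, had between -0.20 (Hsd17b7) and -0.04 (Cyp51). Ebp, the sterol isomerase, had the highest mean difference of the 33, 0.30 (95% interval -0.02 to 0.62, adjusted p = 0.28), and was higher in the ONC eye of all 4 pools. Adjusted p of these 17 enzymes lay between 0.27 (Pmvk) and 0.90 (Tm7sf2 and Cyp51). The regulators were as close to 0: Srebf2, the SREBP gene tied to sterol synthesis, had -0.03 (adjusted p = 0.91), Scap -0.16 (0.45) and Insig1, itself a target of the SREBPs, -0.16 (0.49) with the ONC eye lower in all 4 pools. Of the 8 other genes of SREBP processing and degradation none passed the test. Their median difference was 0.04, and the smallest p was that of Insig2, with 0.23 (adjusted p = 0.31).

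**Figure D3:**
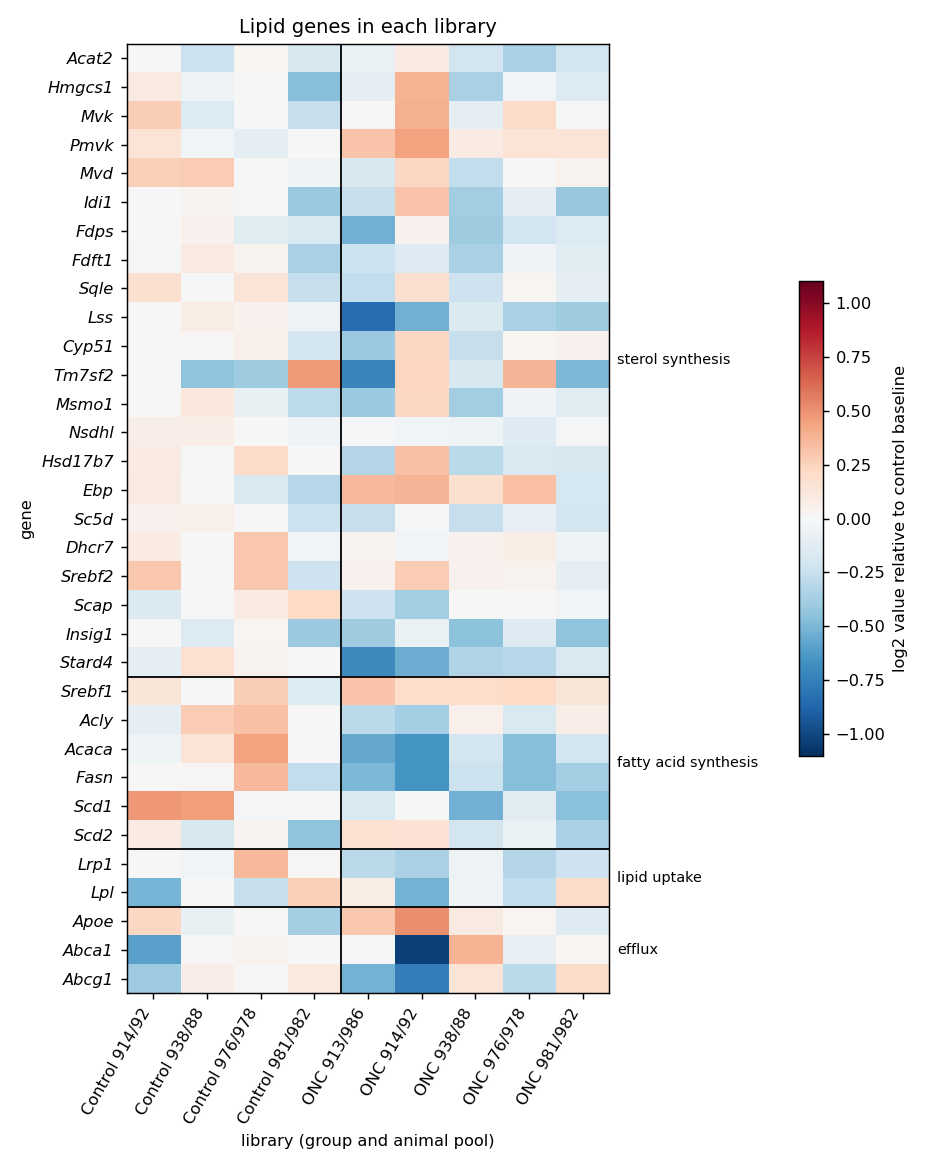
Log2 values relative to the control baseline of the 33 genes (lines) in the 9 libraries (columns), grouped by role, with red above and blue below the baseline. Many sterol synthesis genes are blue together in Control 981/982, ONC 913/986 and ONC 938/88 and red in ONC 914/92. Lss, Stard4, Acaca, Fasn and Lrp1 are blue in all 5 ONC libraries. Fdft1, Insig1, Nsdhl, Sc5d and Scd1 also lie below the baseline in all 5. Some of their values are very near to it, with -0.01 for Nsdhl and Sc5d and 0.00 after rounding for Scd1 in ONC 914/92.

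Differences between libraries of the same group were as large as those between the groups for the sterol enzymes. The median over the 18 enzymes was 0.06, 0.01, 0.00 and -0.19 in Control and -0.25, 0.23, -0.24, -0.03 and -0.14 in ONC. Control 981/982 was the lowest Control library for 14 of the 18 enzymes, where it was so for 35.5% of all genes. ONC 914/92 was the highest ONC library for 13 of the 18, against 30.8% of all genes, and ONC 913/986 was the lowest for 8 of the 18, against 13.2%. Hmgcs1 shares the first 2 of these, with 0.10, -0.06, 0.00 and -0.47 in Control and -0.10, 0.38, -0.36, -0.03 and -0.15 in ONC. It is shown by library after its values were seen. The Müller glia markers had library medians of 0.26, -0.05, 0.02 and -0.48 in Control and 0.22, 0.45, 0.04, 0.01 and -0.31 in ONC, lowest in Control 981/982 for 11 of 12 genes and highest in ONC 914/92 for 8 of 12. ONC 913/986, low for the sterol enzymes, was the lowest ONC library for 0 of the 12 Müller glia markers. The part of glial RNA content in the sterol values was not tested.

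For fatty acid synthesis the library medians were 0.04, 0.08, 0.30 and -0.07 in Control and -0.23, -0.19, -0.20, -0.15 and -0.29 in ONC. The medians of the ONC eyes minus their fellow eyes were -0.38, -0.23, -0.30 and -0.02 in pools 914/92, 938/88, 976/978 and 981/982. In pool 981/982 the 6 genes went both ways, from -0.46 (Scd1) to 0.28 (Srebf1). The rod and cone markers had library medians of -0.61, -0.04, 0.00 and 0.06 in Control and -0.68, -1.09, -0.21, -0.16 and 0.14 in ONC. ONC 914/92 was the lowest ONC library for 7 of the 8 rod and cone markers, against 30.8% of all genes. It was the lowest for 3 of the 6 fatty acid synthesis genes, among them Acaca and Fasn, and the highest for 1, Scd1. The microglia and macrophage markers had ONC medians from 0.28 in pool 914/92 to 2.57 in pools 913/986 and 938/88, against -0.19 to 0.20 in Control. The part of either cell type in the values of the lipid genes was not tested.

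**Figure D4:**
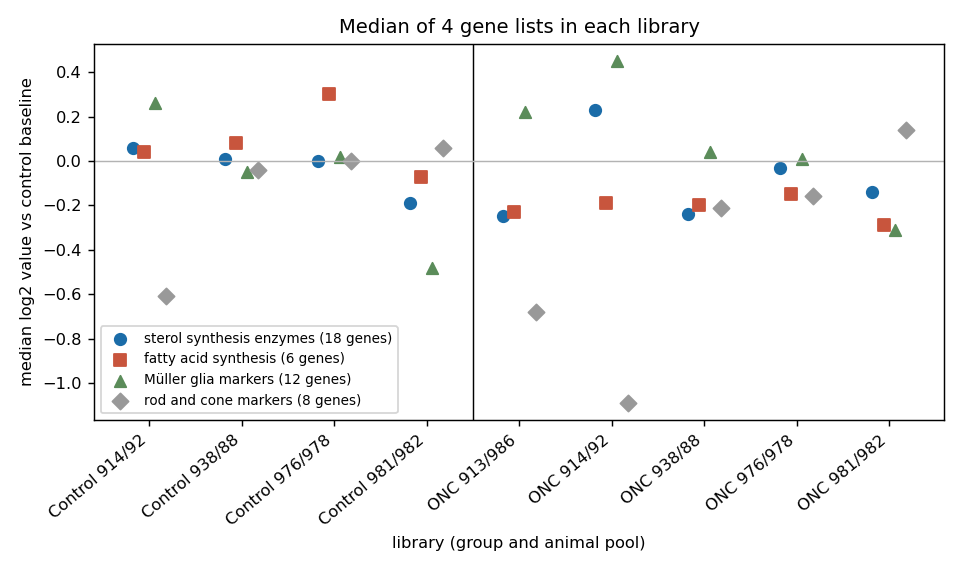
Median log2 value relative to the control baseline of the 18 sterol synthesis enzymes, the 6 fatty acid synthesis genes, 12 Müller glia markers and 8 rod and cone markers in each of the 9 libraries. Fatty acid synthesis lies between -0.07 and 0.30 in Control and between -0.29 and -0.15 in ONC, while the sterol enzymes spread over both groups.

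Of the uptake genes, Lrp1 (gene 16971, chr10:127538158-127621148, minus strand), a large receptor that takes up ApoE-bearing particles, had values of 0.00, -0.03, 0.36 and 0.01 in Control and -0.30, -0.36, -0.06, -0.32 and -0.23 in ONC. The ONC libraries lay wholly below Control, though ONC 938/88 lay just under its fellow eye, the lowest Control library. The mean difference was -0.34 (SE 0.11, 95% interval -0.59 to -0.09, adjusted p = 0.16 in limma). Lpl, the lipase that frees fatty acids from lipoproteins, had values of -0.51, 0.00, -0.25 and 0.26 in Control and 0.08, -0.52, -0.05, -0.27 and 0.21 in ONC. Fellow eyes lay close to each other, each ONC eye a little below its Control, and the mean difference was 0.02 (adjusted p = 0.97). The spread of Lpl between pools was therefore wider than the spread within them. Of 9 other uptake and binding genes none passed the test. Lrp8, a receptor of ApoE and reelin, had 5 ONC values between -0.53 and -0.37 against -0.14 to 0.26 in Control, with a mean difference of -0.48 (adjusted p = 0.057), and passed only when Control 914/92 was left out (adjusted p = 0.0482). The fatty acid receptor gene Cd36 had a mean difference of -0.65 (adjusted p = 0.24), with the ONC eye lower in all 4 pools, and passed with the animal pool as a block (-0.68, adjusted p = 0.0462).

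The efflux genes had a median difference of -0.01, and none of the 3 passed the test. Apoe, the main lipid carrier that glia secrete, had values of 0.23, -0.08, 0.00 and -0.37 in Control and 0.30, 0.51, 0.10, 0.02 and -0.14 in ONC. The ONC eye was the higher in all 4 pools, but the groups overlapped, with Control 914/92 above 3 of the 5 ONC libraries, and the mean difference was 0.21 (SE 0.161, 95% interval -0.15 to 0.58, adjusted p = 0.47 in limma). Apoe was lowest in Control 981/982 and highest in ONC 914/92, as was the median of the Müller glia markers. Abcg1, a transporter that hands cholesterol to lipoproteins, had values of -0.40, 0.07, 0.00 and 0.11 in Control and -0.52, -0.75, 0.14, -0.30 and 0.20 in ONC, with a mean difference of -0.19 (adjusted p = 0.62). Abca1, which loads cholesterol on apolipoproteins, ranged from -0.60 to 0.04 in Control and from -1.03 to 0.38 in ONC, with a mean difference of -0.01 (adjusted p = 0.98). Both transporters were lowest in pool 914/92 in ONC and in Control, the pool with the lowest rod and cone markers in each group. That pool was the lowest for 33.4% of all genes in Control and 30.8% in ONC. The part of rods and cones in the values of the transporters was not tested.

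Further genes of lipid export and use gave no call either. Of 8 other export transporters and carriers 0 passed, and the 2 of smallest p were Clu, which encodes the secreted chaperone and apolipoprotein clusterin, and Abca2, a lysosomal sterol transporter. Clu had values of 0.21, 0.00, 0.03 and -0.46 in Control and 0.72, 0.55, 0.60, 0.69 and 0.19 in ONC, with a mean difference of 0.61 (adjusted p = 0.11). Abca2 had a mean difference of -0.39 (adjusted p = 0.22). Of 10 genes of oxysterols, LXR and sterol esters 0 passed: Nr1h3, an LXR gene, had 0.52 (adjusted p = 0.23), and Ch25h, which makes an oxysterol and is known from macrophages, had 2.31 (SE 0.997, adjusted p = 0.25) and passed the filter on low values in 1 condition only. Ch25h was the most scattered of them, with ONC values of 3.00, -1.36, 2.99, 0.95 and 2.21, highest in the pools 913/986 and 938/88 where microglia and macrophage markers were highest, and the part of such cells in its values was not tested. Of 10 genes of fatty acid oxidation 0 passed, and the median difference was 0.17. A mean above 0 was found for 8 and a mean below 0 for 2, where 50.1% of all genes lay below 0. Hadhb, a subunit of the mitochondrial trifunctional protein, had 0.22 (adjusted p = 0.22) with all ONC libraries above Control, and Ppara, the nuclear receptor that drives oxidation genes, had -0.71 (adjusted p = 0.18) with the ONC eye lower in all 4 pools. Over all 60 other pathway genes 6 had an unadjusted p under 0.05 with a lower mean and 5 with a higher one, against 10.9% and 8.62% of all genes.

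Some of these genes share exon bases with a neighbour in the GENCODE annotation of the same build, and whether reads were counted by strand is not given in the sources used here. Fdft1 shares 774 bases (18.3% of its exons) with Ctsb on the opposite strand, Cyp51 166 bases with Akap9, and Srebf1 109 bases with Rai1. Tm7sf2 shares 532 bases (12.1%) with Vps51 on its own strand and Fdps 1124 bases (26.7%) with the gene model Gm43738. Tm7sf2 had the widest spread of the 33 within the groups (pooled SD 0.447). Whether reads of the neighbours entered the values of these 5 genes was not tested.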

How the data were processed

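The series holds 9 libraries of pulled-down retinal RNA, 5 ONC and 4 Control, grouped by the treatment label and paired by the animal number in the labels. The deposited values were normalized by the authors, per the file headers. Their log2 scale and their centring on the controls were inferred from the deposited numbers, in which 13230 of 14194 genes have exactly 1 Control library at 0. The submitters' processing notes name DESeq, with no version, and the build mm10, and the headers name RefSeq gene models and a filter of raw values between 5 and 298892.188 in 100% of the samples of at least 1 of the 2 conditions, which 13555 genes passed in both and 639 in 1. Which aligner and counting tool were used, and whether strand was, is not given in the sources used here. Depth is unknown, so no counting error can be given. No more than 0.0564% of values were the same in 2 libraries.

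ONC was compared with Control gene by gene in limma (version 3.58.1, R 4.3.3) on the deposited log2 values, with no variance trend, because centred values hold no level, and no block. P-values are two-sided and adjusted by the Benjamini-Hochberg method over all 14194 genes, with a threshold of 0.05. On simulated data for this comparison over 14194 genes the fit called 68.8% of genes shifted by 1 log2 unit, 95.2% of those shifted by 3 and 0.0557% of unchanged genes. The animal numbers pair fellow eyes. The correlation of fellow eyes' deviations from their group means was 0.377, 0.178, -0.0642 and 0.45 in pools 914/92, 938/88, 976/978 and 981/982. Between libraries of different pools it ranged from -0.489 (Control 914/92 with ONC 981/982) to 0.409 (Control 914/92 with ONC 913/986). The fit with the animal pool as a replicate block, in which pool 913/986 adds nothing to the contrast, was an alternative. Other alternatives were a variance trend, robust moderation, 2 rescalings of the libraries, the genes that passed in both conditions and leaving out each library. The values by library were given for genes past the test, genes whose groups do not overlap and the 2 of smallest p in each role. For the other lists of the pathway the genes past the test and the 2 of smallest p were named, and Acacb, Me1, Scd1 and Hmgcs1 were added after their values were seen. One gene that the rule names is not reported here. The members and all lists were chosen with earlier results of these data known. Msmo1 and Hacd2 stand in the table under older symbols and were found by gene ID, and 2 listed genes, Msr1 and Fabp7, were not found in the table used here. Astrocyte, oligodendrocyte, endothelial and pericyte and pigment epithelium markers were also listed: 0 of 4, 0 of 4, 0 of 6 and 0 of 5 measured genes passed, with 1, 0, 0 and 0 at an unadjusted p under 0.05 and median differences of 0.22, -0.15, -0.11 and -0.02. The astrocyte marker at that p was Gfap, with a mean difference of 1.80 and the ONC eye higher in all 4 pools. Its adjusted p was 0.148 in limma and 0.112 with the block. Of 5 measured markers of other leukocytes 3 passed (Cd52, S100a8 and S100a9), with a median of 2.09. Cd52, S100a8 and Ptprc passed the filter on low values in 1 condition only, and Cd52 and S100a8 did not pass with the block (adjusted p = 0.0989 and 0.0737). Promoters were read from a RefSeq table of GRCm38.p6, which had no entry for Sqle, Abcg1, Lpl, Stard4, Scd1, Fdps, Fdft1 and Scd2. Tables were made with pandas 2.3.3 in Python 3.11.15 and figures with matplotlib 3.10.9.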

Additional observations from a re-analysis of the deposited data

Results flagged for a closer look

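In 6 of 90 groups of libraries (45 genes in 2 groups), 1 library lay far from the others by Dixon's test at 95%, and chance gives about 1 in 20. Idi1 was at -0.41 in Control 981/982 where the other Control libraries lay between -0.02 and 0.03. Hsd17b7 was at 0.32 in ONC 914/92 against -0.32 to -0.17 in the other ONC libraries. These are the libraries in which the sterol enzymes as a whole were lowest in Control and highest in ONC. Lrp1 was at 0.36 in Control 976/978 against -0.03 to 0.01, and its mean difference includes that library. Abca1 was at -0.60 in Control 914/92 against 0.00 to 0.04. Ch25h was at -2.95 in Control 976/978 against -0.06 to 0.01. Hadhb was at 0.35 in ONC 913/986 against 0.10 to 0.17.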

How the results depend on the processing

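No lipid gene of the 33 passed under any of the 17 alternatives. The medians of the 4 roles moved by less than the spread between libraries, though that of sterol synthesis went from -0.08 to -0.15 without Control 981/982 or ONC 914/92 and that of efflux, -0.01, ranged from -0.16 to 0.13 and crossed 0 under 6 of them. The count of all genes past the threshold moved from 165 to 50 with a variance trend, 30 with quantile normalization, 102 among genes that passed in both conditions, 129 with the replicate block and 0 with the replicate block and a variance trend together (3574 at an unadjusted p under 0.05). Leaving out 1 library gave 62 (Control 976/978) to 234 (ONC 981/982), with 71 without Control 938/88, 90 without Control 981/982, 64 without ONC 913/986 and 92 without ONC 976/978. The count of other pathway genes went from 1 to 0 with a trend, with the block and trend, with quantile normalization, among genes that passed in both conditions and without both libraries of pool 914/92 (chosen after seeing the data), and to 0 to 2 on leaving out 1 library. The replicate block ended the call of Elovl6 and added Cd36. Directions turned in 7 of 45 named genes, all with a main difference within 0.07 of 0. Abca1 gave 0.09 with quantile normalization, 0.06 without pool 914/92 and -0.16 to 0.21 without 1 library. Cyp51 gave 0.05 with the block, with or without the trend, and -0.11 to 0.05 without 1 library. Lpl gave -0.03 with the block in both fits, -0.01 without pool 914/92 and -0.11 to 0.14 without 1 library. Tm7sf2 gave 0.07 with the block in both fits, 0.06 with quantile normalization and -0.20 to 0.12 without 1 library. Without 1 library Hmgcs1 gave -0.07 to 0.13, Scd2 -0.04 to 0.14 and Srebf2 -0.13 to 0.04. The cause was not tested.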
